A study of Sus scrofa with 2 samples.

Results

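The mitochondrial ribosomal proteins were followed here in pig skeletal muscle after long heat exposure. They were the genes whose Ensembl pig identifier carries a symbol that begins with MRPL or MRPS and a number. This gave 43 genes, 29 of the large subunit (MRPL) and 14 of the small subunit (MRPS), among 27987 entries of the deposited table, of which 11374 could be given a symbol. A further 22 identifiers with such symbols, among them those of MRPL12, MRPS12 and MRPS7, are not analysed here. Messenger RNA came from longissimus dorsi, a long muscle beside the spine, of castrated crossbred males of the line labelled DLY, bred from Duroc boars and Yorkshire-Landrace sows. The 30 °C arm and the 22 °C arm each held 8 pigs kept for 21 days, taken from 16 pigs of 8 litters weighing 79.0 ± 1.5 kg. There was 1 library per arm, and the sources used here do not say whether it pooled pigs. No value below therefore has a replicate, no significance test across pigs can be made, and temperature cannot be told apart from pig, handling or library.

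Mitochondria keep their own ribosomes, which translate the few proteins encoded by mitochondrial DNA, all of them core parts of the respiratory chain and ATP synthase. The ribosomal RNAs come from the mitochondrial genome, while every protein of the particle is encoded in the nucleus, made in the cytosol and imported. Some of these proteins have bacterial counterparts and others are found only in mitochondria. In muscle the particle supplies the subunits needed for oxidative ATP production, and the pig particle is one of those whose structure was solved.

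Levels are given as RPKM, reads scaled to gene length and library size, as the authors computed them. Library totals recovered from the values were 22863584 reads at 30 °C and 23608242 reads at 22 °C. Each of the 43 genes had a mean RPKM of at least 1, so none was lost to the filter on low values. Their values rested on 91 to 2142 reads at 30 °C and on 121 to 2354 reads at 22 °C. The true read number can be a multiple of the recovered one. Of the listed muscle markers 6 of 10 were matched, led by ACTA1, skeletal muscle actin, at 65219 RPKM at 30 °C and 68749 RPKM at 22 °C, so the labelled tissue and its defining genes go together. Reads of overlapping genes cannot be told apart without strand, and genes of this family with near-identical pseudogenes can share reads, so single values carry that limit.

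The mitoribosomal genes stood at closely similar levels at both temperatures. On the log2(RPKM + 1) scale, none of the 43 differed by 1.5-fold or more, where 5.81% of the 13191 entries with a mean RPKM of at least 1 did. A narrower limit of 0.32 on that scale, which is 25% higher or 20% lower, was passed on the low side at 30 °C by MRPL55 alone, where 7.77% of all entries passed it. On the high side none of the 43 passed it, where 12.7% of all entries did. Entries at low levels scatter more. Among the 4657 entries with a symbol and a mean RPKM inside the range of the family, 3.67% were past 0.32 on the low side, 6.1% on the high side and 1.14% past 1.5-fold. In all, 30 of the 43 genes, or 69.8%, lay within 1.1-fold, against 45.4% of all entries and 55.5% of entries in the same range of level. The middle 50% of the family spanned 0.15 on the log2 scale, against 0.30 for all entries and 0.24 for those in the same range. That range does not match levels, since its entries had a median of 8.97 RPKM at 30 °C and the family 17.8 RPKM. How far level accounts for the narrower spread was not tested.

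The large subunit had a median log2 ratio (30 °C over 22 °C) of -0.02 and the small subunit of -0.01, beside 0.05 for all 13191 entries. In the large subunit 16 of 29 genes were below 0 and in the small subunit 8 of 14, where 41.2% of all entries were. Set against the median of all entries, 21 of 29 and 11 of 14 lay below it, where 50% of all entries do by definition. The sign of these medians depended on scaling. With totals taken without the 10 highest entries they were 0.02 and 0.03, while the median of all entries was then 0.09. Summed over the 29 genes the large subunit had 643 RPKM at 30 °C and 655 RPKM at 22 °C. Summed over the 14 genes the small subunit had 321 RPKM at 30 °C and 334 RPKM at 22 °C. The whole family made up 0.138% of summed RPKM in each library.

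**Figure D1:**
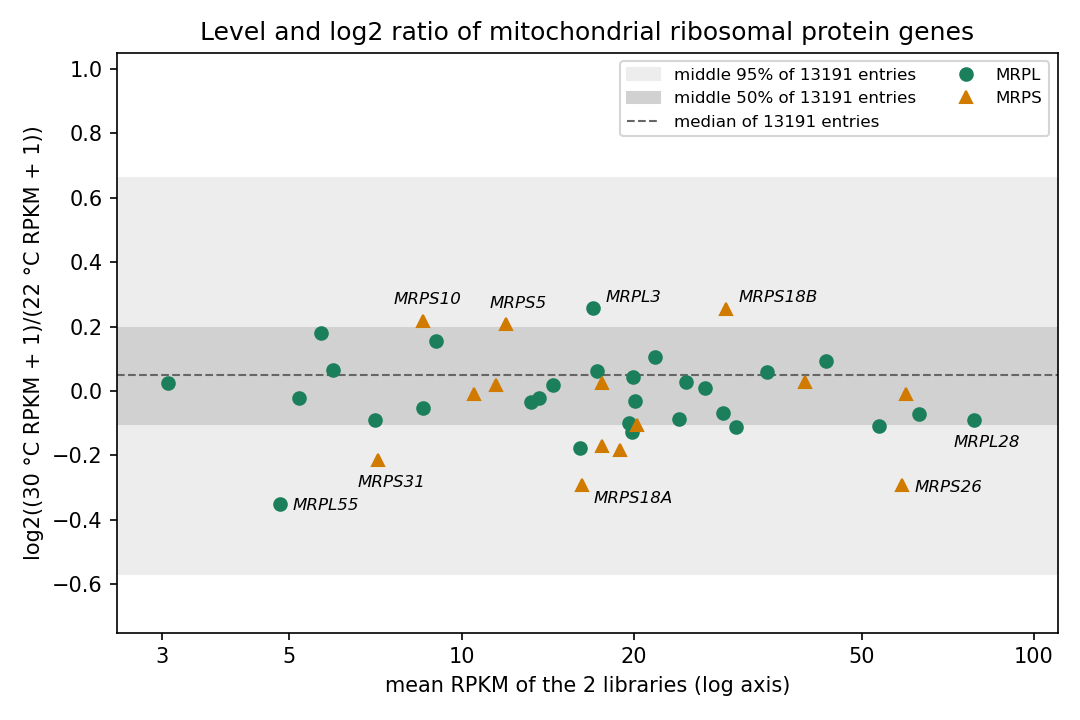
Each point is 1 mitoribosomal gene, with its mean RPKM on the horizontal log axis and log2((30 °C RPKM + 1)/(22 °C RPKM + 1)) on the vertical axis, with MRPL as circles and MRPS as triangles. Grey bands show the middle 50% and 95% of 13191 entries and the dashed line their median, 0.05. All 43 genes lie inside the wider band, from MRPL55 at -0.35 to MRPL3 at 0.26.

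Although 1 copy of nearly every protein is built into each particle, their messenger RNA levels ranged over 25.6-fold. The highest was MRPL28, a large subunit protein with a bacterial counterpart, with 76.2 RPKM at 30 °C and 81.1 RPKM at 22 °C. MRPL18, whose bacterial counterpart binds the 5S ribosomal RNA, followed with 61.5 RPKM at 30 °C and 64.7 RPKM at 22 °C. MRPS33, a mitochondria-specific protein of the small subunit head, was at 59.7 RPKM at 30 °C and 60.04 RPKM at 22 °C. The lowest was MRPL19, a large subunit protein with a bacterial counterpart, with 3.10 RPKM at 30 °C and 3.03 RPKM at 22 °C. The 5 highest genes held 31.3% of the family's summed RPKM at 30 °C and 32.97% at 22 °C. The order of levels was nearly the same in both libraries, with a Spearman rho of 0.987 over the 43 genes, which share the libraries and are not replicates. Of 42 neighbouring pairs in that order 23 had overlapping values in the libraries, so their order is not resolved. Level did not go with the ratio, with a rho of -0.09 over the same genes.

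**Figure D2:**
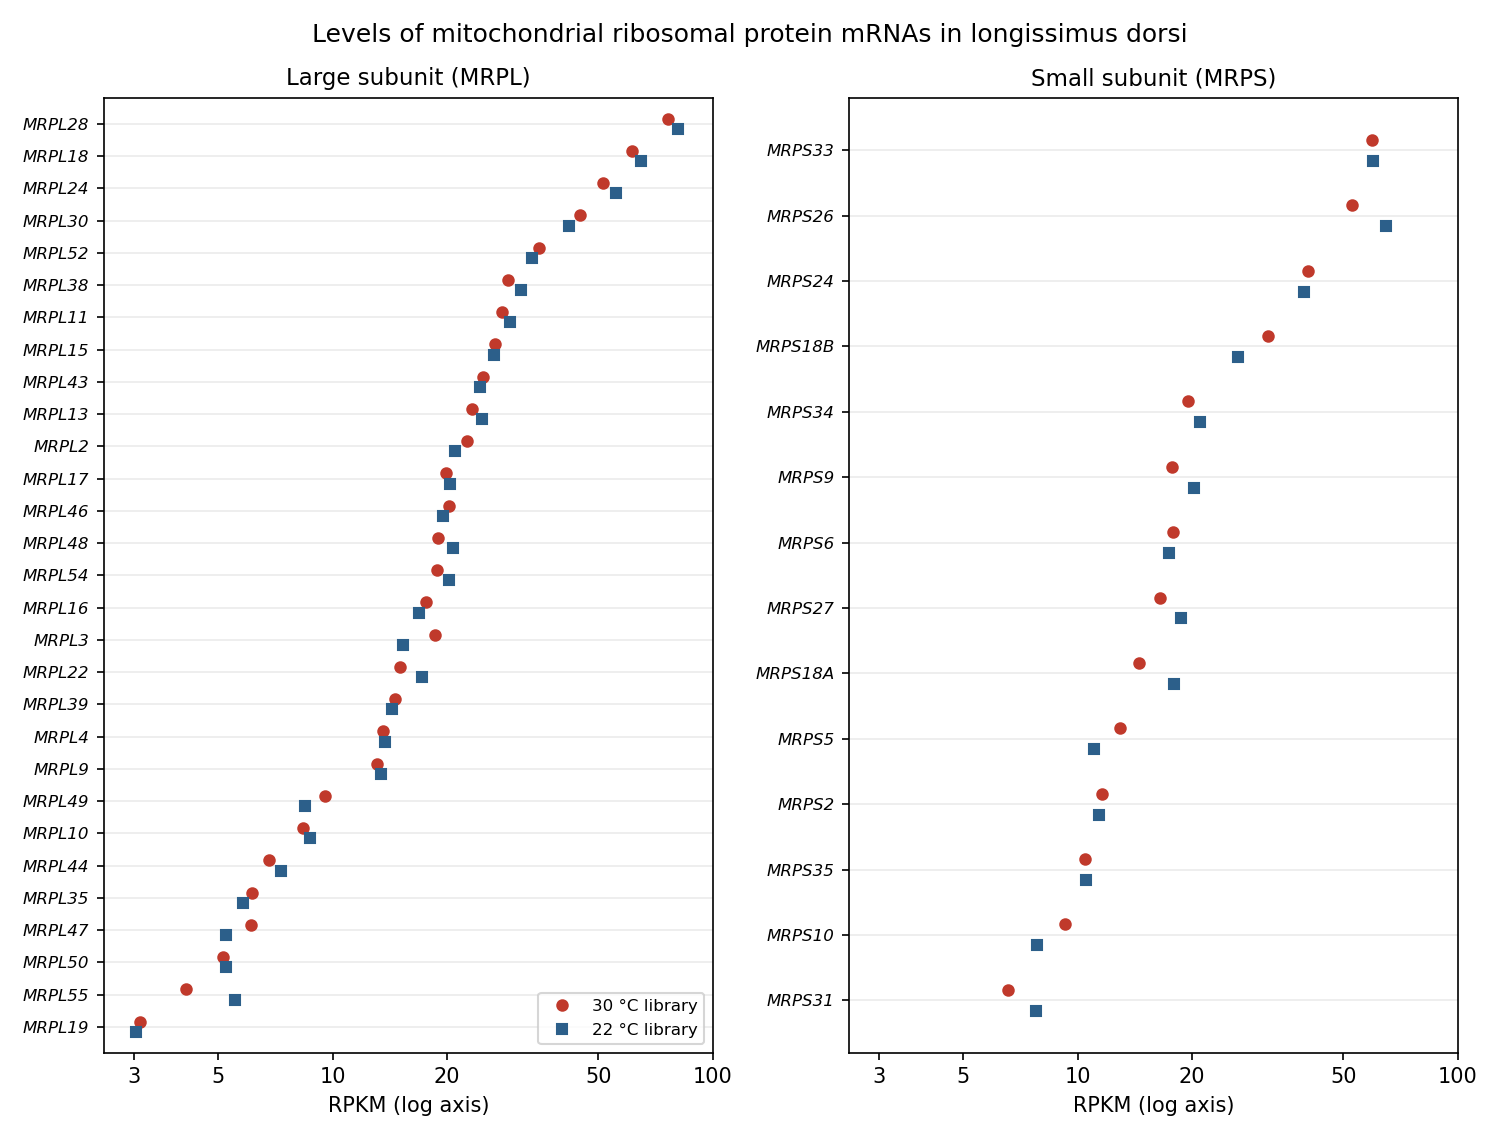
Each row is 1 mitoribosomal gene, ordered by mean level, with its RPKM on a log axis in the 30 °C library (circles) and the 22 °C library (squares). The pair of symbols of a gene lie close together in nearly every row, while levels run from about 3.10 RPKM for MRPL19 to 76.2 RPKM for MRPL28 at 30 °C.

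MRPL3, the counterpart of a bacterial large subunit protein that reaches towards the peptidyl transferase centre, had the highest ratio of the family. It stood at 18.6 RPKM at 30 °C and 15.4 RPKM at 22 °C. This is a ratio of 1.21 with a 95% Clopper-Pearson interval of 1.08 to 1.35 from 708 and 605 reads. These intervals cover counting error only, not the spread between pigs. They treat reads as independent, which reads copied by PCR are not, so they may be too narrow. MRPL2, whose bacterial counterpart lies near the same centre, was at 22.6 RPKM at 30 °C and 20.9 RPKM at 22 °C, a ratio of 1.08 (0.958 to 1.22). MRPL16, which contacts transfer RNA in bacteria, had 17.6 RPKM at 30 °C and 16.8 RPKM at 22 °C. MRPL4, whose bacterial counterpart lines the exit tunnel, had 13.5 RPKM at 30 °C and 13.7 RPKM at 22 °C. Except for MRPL3, the intervals of these genes held 1.

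Around the mouth of the tunnel, where new membrane proteins leave the ribosome, 4 of 6 measured genes were below 0. Of all entries 41.2% were below 0. With RPKM as deposited, none of the 6 genes had an interval without 1. MRPL22, which lines the tunnel, had 15.1 RPKM at 30 °C and 17.2 RPKM at 22 °C, a ratio of 0.877 (0.699 to 1.0995). MRPL24 had 51.5 RPKM at 30 °C and 55.6 RPKM at 22 °C, a ratio of 0.927 (0.856 to 1.004). MRPL47, the counterpart of bacterial L29 at the tunnel rim, lay on the other side with 6.09 RPKM at 30 °C and 5.25 RPKM at 22 °C, a ratio of 1.16 (0.969 to 1.39). MRPL44, a protein of ribonuclease III type fold, was at 6.81 RPKM at 30 °C and 7.30 RPKM at 22 °C. MRPL39 was at 14.6 RPKM at 30 °C and 14.3 RPKM at 22 °C, and MRPL17 at 19.9 RPKM at 30 °C and 20.3 RPKM at 22 °C. Without the 10 highest entries in the totals, 3 of these 6 were below 0, where 34.9% of all entries were. After centring on the median of all entries 5 of 6 were below 0, where 50% of all entries are by definition.

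The central protuberance, the crown of the large subunit that faces the small one, had 3 of 5 measured genes below 0. Of all entries 41.2% were below 0. After centring on the median of all entries 4 of 5 were below 0, where 50% of all entries are by definition. Without the 10 highest entries in the totals 3 of 5 were. MRPL18 had a ratio of 0.951 (0.883 to 1.02). Besides it, MRPL48 had 18.9 RPKM at 30 °C and 20.8 RPKM at 22 °C (ratio 0.912, interval 0.821 to 1.01). MRPL38, a mitochondria-specific protein, had 28.9 RPKM at 30 °C and 31.3 RPKM at 22 °C (0.924, 0.836 to 1.02). MRPL46 rested on 470 reads in each library, with 20.2 RPKM at 30 °C and 19.6 RPKM at 22 °C. MRPL35 had 6.12 RPKM at 30 °C and 5.79 RPKM at 22 °C. With RPKM as deposited the intervals of all 5 held 1, those of MRPL18, MRPL48 and MRPL38 with upper bounds of 1.01 to 1.02. In the stalk that binds translation factors, MRPL10 had 8.37 RPKM at 30 °C and 8.72 RPKM at 22 °C and MRPL11 had 27.9 RPKM at 30 °C and 29.3 RPKM at 22 °C. Both stalk genes lay slightly below 0 under each scaling tried, by less than their counting error.

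MRPL55, the counterpart of bacterial L31, had the lowest ratio of the family, with 4.12 RPKM at 30 °C and 5.52 RPKM at 22 °C. The ratio of 0.746 (0.563 to 0.984) came from 91 and 126 reads, the fewest among large subunit genes. Its log2(RPKM + 1) ratio was -0.35, and it was inside the limit of 0.32 with a pseudocount of 5 or with totals taken without the 10 highest entries. It was singled out after its value was seen. MRPL28, with the most reads of the family, was the only other gene with an MRPL symbol whose interval lay below 1, at a ratio of 0.9396 (0.886 to 0.997).

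The remaining genes with an MRPL symbol differed by less than their counting error. Among those with bacterial counterparts, MRPL9 was at 13.1 RPKM at 30 °C and 13.4 RPKM at 22 °C, and MRPL13 at 23.3 RPKM at 30 °C and 24.7 RPKM at 22 °C. MRPL15 was at 26.8 RPKM at 30 °C and 26.6 RPKM at 22 °C, and MRPL30 at 44.7 RPKM at 30 °C and 41.9 RPKM at 22 °C. Of the mitochondria-specific ones, MRPL49 was furthest from 1, with 9.56 RPKM at 30 °C and 8.47 RPKM at 22 °C (ratio 1.13, interval 0.972 to 1.31). MRPL43 stood at 24.9 RPKM at 30 °C and 24.4 RPKM at 22 °C, and MRPL52 at 34.9 RPKM at 30 °C and 33.4 RPKM at 22 °C. MRPL50 stood at 5.16 RPKM at 30 °C and 5.25 RPKM at 22 °C, and MRPL54 at 18.9 RPKM at 30 °C and 20.3 RPKM at 22 °C. With RPKM as deposited, the counting interval held 1 for all 10 genes listed as mitochondria-specific under an MRPL symbol. MRPS18A, described below, is not on that list.

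Grouped by symbol, the small subunit was more spread than the large one, a difference that was not tested. The SD of log2 ratios was 0.18 over 14 genes against 0.12 over 29. In 7 of its 14 genes the counting interval left out 1, 4 below and 3 above, against 3 of 29 in the large subunit, 2 below and 1 above. Over all entries with recovered reads 10.3% had an interval below 1 and 20.2% above. All intervals use RPKM as deposited and were not recomputed under other scalings. The median raw log2 ratio of entries with recovered reads was 0.06, so intervals that end near 1, and these counts, depend on scaling. They include those of MRPS10 and MRPS5, with lower bounds of 1.01 and 1.02. MRPL24, MRPL48, MRPL38 and MRPL18 had upper bounds from 1.004 to 1.02. MRPS26, a mitochondria-specific protein with a mean level next to that of MRPS33, rested on the most reads of any small subunit gene. It had 52.7 RPKM at 30 °C and 64.8 RPKM at 22 °C, a ratio of 0.813 (0.759 to 0.872) from 1447 and 1837 reads. MRPS27, a protein of pentatricopeptide repeats, had 16.5 RPKM at 30 °C and 18.7 RPKM at 22 °C, a ratio of 0.883 (0.804 to 0.970). MRPS31, of the subunit's head, had 6.54 RPKM at 30 °C and 7.74 RPKM at 22 °C, a ratio of 0.845 on 99 and 121 reads whose interval (0.641 to 1.11) held 1. MRPS34 was at 19.5 RPKM at 30 °C and 21.01 RPKM at 22 °C, and MRPS35 at 10.46 RPKM at 30 °C and 10.52 RPKM at 22 °C. MRPS33 had a ratio of 0.994 (0.870 to 1.14). With MRPS33, all 6 measured genes listed as mitochondria-specific under an MRPS symbol were below 0, where 41.2% of all entries were. Their median was -0.14, with MRPS33 and MRPS35 at -0.01. With totals taken without the 10 highest entries 4 of 6 were below 0, where 34.9% of all entries were. MRPS18B and the mitoribosomal proteins of other names are not on that list. MRPS18B (0.26) and PTCD3 (0.11) were above 0, and DAP3 (-0.02) and CHCHD1 (-0.01) below.

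Of the 6 measured small subunit genes listed with bacterial counterparts 5 were above 0, where 58.8% of all entries were, at a median of 0.03. Of these, MRPS2, MRPS6 and MRPS24 lay at 0.02 to 0.03, under the median of all entries, 0.05. After centring on that median only 2 of 6 stayed above 0, where 50% of all entries are by definition. MRPS10, of the subunit's head, had 9.27 RPKM at 30 °C and 7.83 RPKM at 22 °C, a ratio of 1.18 (1.01 to 1.39). MRPS5, which lies at the entry of the messenger RNA channel in bacteria, had 12.9 RPKM at 30 °C and 11.05 RPKM at 22 °C, a ratio of 1.17 (1.02 to 1.33). MRPS24, the counterpart of bacterial S3 at the same channel, had 40.3 RPKM at 30 °C and 39.5 RPKM at 22 °C, a ratio of 1.02 (0.911 to 1.14). MRPS2 was at 11.6 RPKM at 30 °C and 11.4 RPKM at 22 °C, and MRPS6 at 17.8 RPKM at 30 °C and 17.4 RPKM at 22 °C. MRPS9 was the exception, with 17.7 RPKM at 30 °C and 20.2 RPKM at 22 °C, a ratio of 0.876 (0.803 to 0.954).

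The MRPS18 genes encode paralogous proteins that sit at different places of the particle, and the measured pair lay at opposite ends of the range. MRPS18B, a small subunit protein, had 31.7 RPKM at 30 °C and 26.4 RPKM at 22 °C, a ratio of 1.20 (1.08 to 1.34). MRPS18A, which structures place in the large subunit despite its name, had 14.5 RPKM at 30 °C and 17.9 RPKM at 22 °C, a ratio of 0.807 (0.689 to 0.946). The counting intervals do not overlap. Counting MRPS18A with the large subunit gave medians of -0.03 and -0.01. The SD of log2 ratios was then 0.13 over 30 large subunit genes and 0.17 over 13 small subunit genes. Intervals lay below 1 for 3 and above 1 for 1 of those 30, and below for 3 and above for 3 of those 13.

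**Figure D3:**
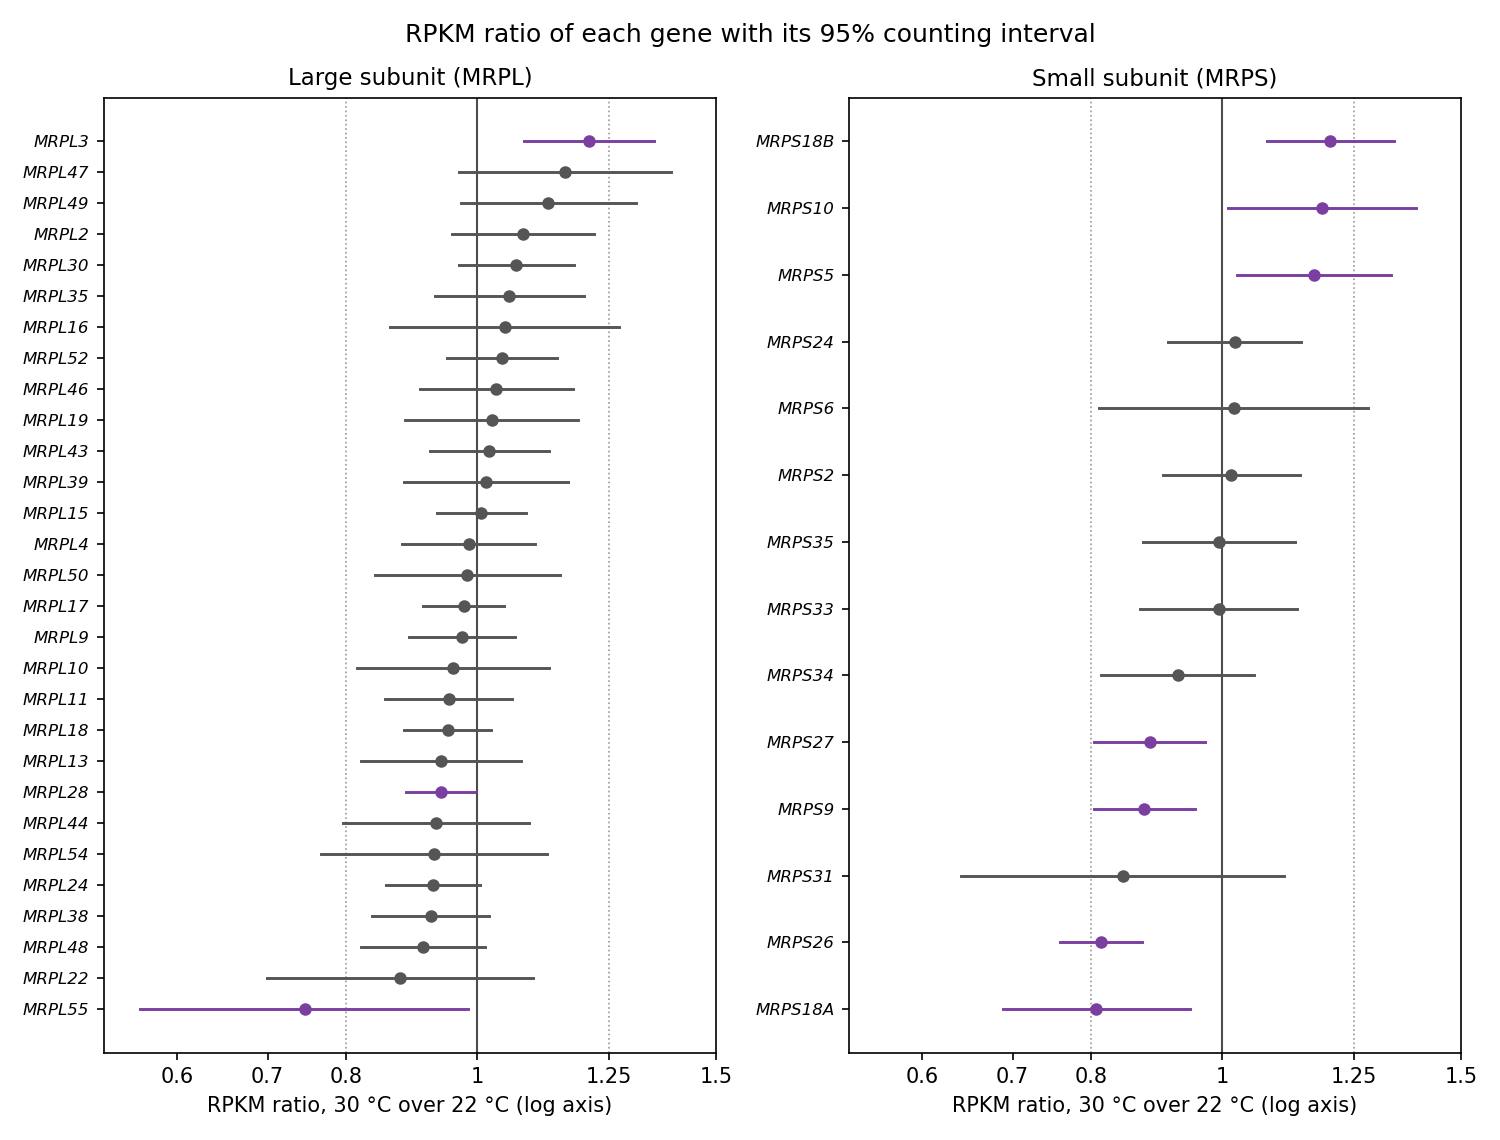
Each row is 1 mitoribosomal gene, with its RPKM ratio (30 °C over 22 °C, log axis) as a point and the 95% counting interval as a bar, in purple where the interval leaves out 1 and grey where it holds 1. Dotted lines mark ratios 20% lower and 25% higher. With RPKM as deposited, intervals leave out 1 for 3 of 29 MRPL genes and for 7 of 14 MRPS genes.

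Other genes of mitochondrial translation were read beside the family. Of 3 mitoribosomal proteins that carry other names, DAP3, a GTP-binding protein of the small subunit, had 15.8 RPKM at 30 °C and 16.1 RPKM at 22 °C. CHCHD1 had 21.1 RPKM at 30 °C and 21.2 RPKM at 22 °C, and PTCD3 had 9.77 RPKM at 30 °C and 8.95 RPKM at 22 °C. All 3 had intervals that held 1. Genes of assembly and ribosomal RNA modification had a median of 0.09 over 17 measured genes, 12 of them above 0, where 58.8% of all entries were. After centring on the median of all entries their median was 0.04 and 10 of 17 were above 0, where 50% of all entries are by definition. Past 0.32 lay 7.77% of all entries on the low side and 12.7% on the high side, but none of these 17 genes. They ran from MTERF3, a factor of mitochondrial transcription and ribosome assembly (13.3 RPKM at 30 °C and 15.01 RPKM at 22 °C, -0.17) and the RNA methyltransferase MRM3 (3.66 RPKM at 30 °C and 4.15 RPKM at 22 °C, -0.14) to RCC1L (5.75 RPKM at 30 °C and 4.73 RPKM at 22 °C, 0.24). Highest was ERAL1, a chaperone of the small ribosomal RNA, with 11.4 RPKM at 30 °C and 9.42 RPKM at 22 °C (0.25).

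Translation factors had a median log2 ratio of 0.13 over 13 genes, with 2 genes past 0.32 on the high side and none on the low side, where 12.7% and 7.77% of all entries were. MTRFR, a release factor homologue that rescues stalled ribosomes, was at 6.59 RPKM at 30 °C and 3.06 RPKM at 22 °C, a ratio of 2.15 (1.50 to 3.13) and a log2(RPKM + 1) ratio of 0.90. GUF1, a GTPase related to bacterial LepA, was at 3.06 RPKM at 30 °C and 2.14 RPKM at 22 °C (0.37). TUFM, the elongation factor that delivers transfer RNA, was at 30.7 RPKM at 30 °C and 34.2 RPKM at 22 °C (-0.15), and GFM1, a translocase, at 8.11 RPKM at 30 °C and 8.61 RPKM at 22 °C (-0.08).

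Mitochondrial aminoacyl-tRNA synthetases, which charge transfer RNAs, had a median of 0.17 over 14 genes, with 9 above 0, where 58.8% of all entries were. After centring on the median of all entries the median was 0.12 and 9 of 14 were above 0, where 50% of all entries are by definition. PARS2 (2.003 RPKM at 30 °C and 1.04 RPKM at 22 °C, 0.55) and RARS2 (6.77 RPKM at 30 °C and 5.02 RPKM at 22 °C, 0.37) were highest. SARS2 (1.39 RPKM at 30 °C and 2.04 RPKM at 22 °C, -0.35) and WARS2 (1.06 RPKM at 30 °C and 1.35 RPKM at 22 °C, -0.19) were lowest, both with intervals that held 1. With RPKM as deposited, the counting interval lay above 1 for 7 of the 14 and below for none. Of all entries with recovered reads 20.2% lay above and 10.3% below.

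Genes of mitochondrial DNA replication and transcription had a median of 0.11 over 8 genes. TEFM, a transcription elongation factor (5.39 RPKM at 30 °C and 3.65 RPKM at 22 °C, 0.46), and the nuclease MGME1 (2.87 RPKM at 30 °C and 2.23 RPKM at 22 °C, 0.26) were highest. TFB2M (3.30 RPKM at 30 °C and 3.52 RPKM at 22 °C) and the polymerase POLG (22.4 RPKM at 30 °C and 23.5 RPKM at 22 °C) were lowest, both at -0.07. Regulators of mitochondrial biogenesis had a median of -0.02 over 7 genes. They ran from the corepressor NRIP1 (9.01 RPKM at 30 °C and 10.8 RPKM at 22 °C, -0.24) and GABPB1 (1.08 RPKM at 30 °C and 1.19 RPKM at 22 °C, -0.08) to NRF1 (2.24 RPKM at 30 °C and 2.11 RPKM at 22 °C, 0.06) and MYC (3.94 RPKM at 30 °C and 2.66 RPKM at 22 °C, 0.43). The 13 mitochondrial genes whose proteins mitoribosomes make had a median of 0.16, from ND4L (0.00) to ATP8 (0.30). The 23 cytosolic ribosomal proteins matched by symbol had a median of 0.02. Neither difference from the family was tested.

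**Figure D4:**
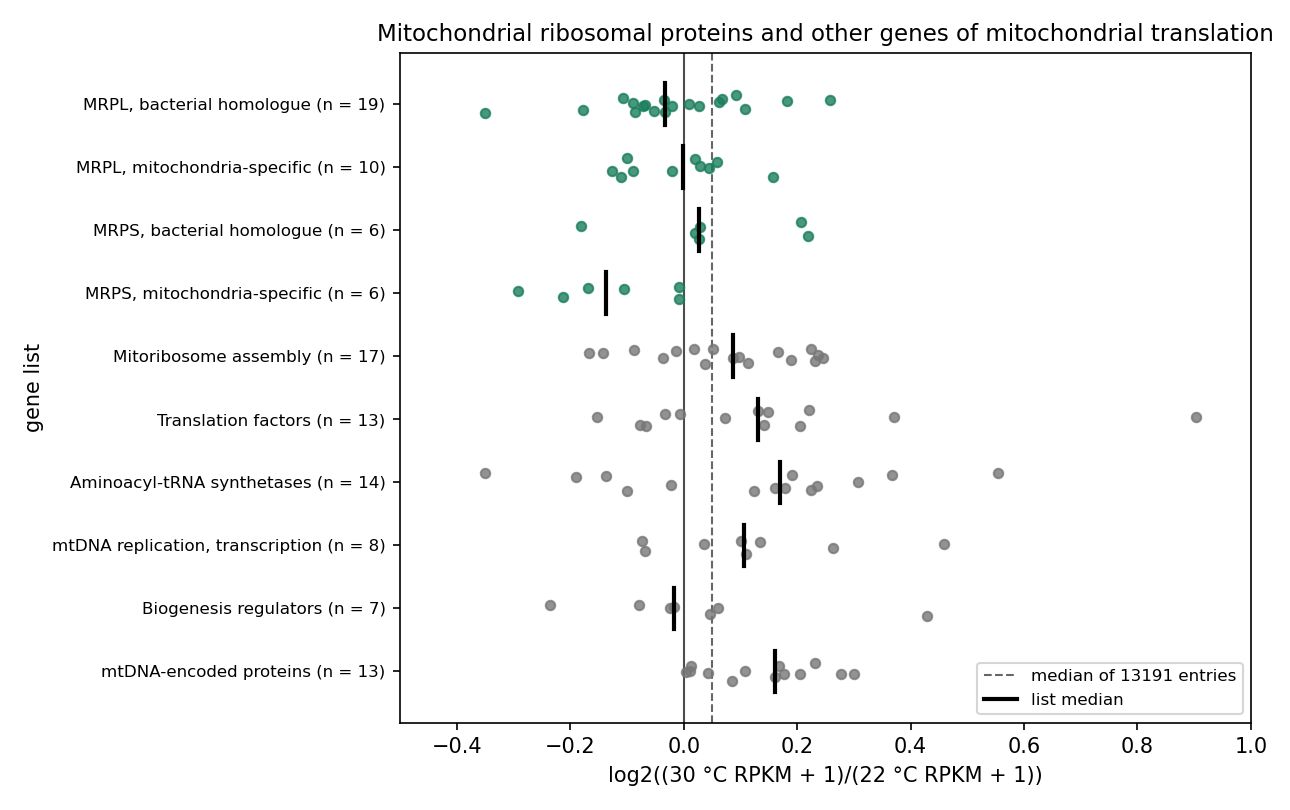
Each point is 1 gene with its log2((30 °C RPKM + 1)/(22 °C RPKM + 1)) on the horizontal axis, in 4 groups of mitoribosomal proteins (green, upper rows) and 6 lists of related genes (grey), with the list median as a black bar. Medians of the mitoribosomal groups run from -0.14 to 0.03, and the dashed line marks the median of 13191 entries, 0.05.

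Markers of other cells differed between the libraries, and their part in the values above was not tested. Fibroblast markers summed to 817 RPKM at 30 °C and 901 RPKM at 22 °C over 5 of 6 listed genes. Of these 5, 4 were below 0, where 41.2% of all entries were. Adipocyte markers summed to 49.8 RPKM at 30 °C and 51.3 RPKM at 22 °C over 3 of 6, but their median log2 ratio was -0.53. The lipid droplet gene CIDEC had 3.48 RPKM at 30 °C and 7.56 RPKM at 22 °C (ratio 0.460, interval 0.361 to 0.583), and PLIN1 had 6.64 RPKM at 30 °C and 10.1 RPKM at 22 °C (0.661, 0.450 to 0.962). PLIN4, which makes up most of the sum, lay on the other side with 39.6 RPKM at 30 °C and 33.7 RPKM at 22 °C. Endothelial markers summed to 138 RPKM at 30 °C and 121 RPKM at 22 °C over 3 of 5, with 1 of them below 0. Macrophage markers summed to 13.4 RPKM at 30 °C and 9.63 RPKM at 22 °C over 4 of 5, with LYZ (log2 ratio 1.04) and CD68 (0.47) above 0 and CD14 (-0.06) and CSF1R (-0.01) below. Lymphocyte markers summed to 2.96 RPKM at 30 °C and 2.17 RPKM at 22 °C over the 2 genes of 5 listed that passed the filter, with CD2 (0.68) above 0 and CD3D (-0.16) below. No matched marker was listed at 0 in either library. In whole muscle, fewer cells of a type and less RNA per cell cannot be told apart.

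What the mitoribosomal genes share beyond their names was looked for in gene order. In the RefSeq annotation of Sscrofa11.1, used for neighbours only because its build is not that of the files, no member measured here had another as its immediate protein-coding neighbour.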

How the data were processed

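One library of longissimus dorsi messenger RNA per temperature was analysed. The authors deposited RPKM values, 1 per entry and library. Per the submitters' processing notes, Sscrofa10.2 is the build named and the tools include TopHat 1.4.0, Cufflinks 1.3.0 and Bowtie, whose roles are not stated. The sources used here do not say how reads were counted or how those with several matches were treated. The libraries were poly(A) selected, per the labels' protocols.

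Library totals were those that made gene lengths whole, to 0.01 bp, in 68.9% of 1934 entries scanned, against 2% at a typical wrong total. Reads were then the smallest whole numbers that gave both RPKM values and a whole length, found for 19393 of 19550 entries above 0 in both libraries. At 1 kb 1 read was worth 0.0437 RPKM at 30 °C and 0.0424 RPKM at 22 °C. Clopper-Pearson 95% intervals of the RPKM ratio follow from these reads. The effect was log2((30 °C RPKM + 1)/(22 °C RPKM + 1)), which understates low genes, over entries whose mean RPKM reached 1. Genes were called by size (0.32 on the log2 scale, and 1.5-fold), with no test. The scripts were tested on simulated data. Python 3.11.15, pandas 2.3.3, NumPy 2.4.6 and SciPy 1.17.1 were used.

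The members and lists were chosen with earlier results of these data known. Of 96 genes in the 6 related lists 67 were matched, and the others, TFAM and PPARGC1A among them, are not analysed here. METTL15, RPUSD4, PRIMPOL, TOP1MT and ESRRG were matched, but their mean RPKM was under 1 and they were left out of the list values. Every member could be named, ordered by role. Full detail went to the 4 highest and 4 lowest ratios per subunit above a mean RPKM of 5 and the 3 highest levels, and the 2 highest and 2 lowest of each related list were named. The mitochondrial genome and cytosolic lists were added later.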

Additional observations from a re-analysis of the deposited data

How the results depend on the processing

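In all, 9 alternatives were planned and the raw ratio of RPKM was chosen after seeing the data. No paired analysis was possible because each arm has 1 library. The count of 1 mitoribosomal gene past 0.32 on the low side (log2, 20% lower at 30 °C) became 0 with a pseudocount of 5, with a mean RPKM of at least 5, which removes MRPL55 and MRPL19, and with totals taken without the 10 highest entries. It became 3 with centring on the median of all entries and with trimmed mean rescaling, where MRPS26 and MRPS18A joined MRPL55. No gene of the family was past 0.32 on the high side or 1.5-fold apart under any of the 10 alternatives. Over the alternatives the MRPL median ran from -0.08 to 0.02 and the MRPS median from -0.07 to 0.03. Both were lowest with trimmed mean rescaling, and their sign turned without the 10 highest entries. The counting interval of a single gene had a median half-width of 0.18 on the log2 scale. Intervals were computed on RPKM as deposited only, so which of them leave out 1 depends on that scaling. Genes below 0 numbered 24 of 43 as deposited, 32 when centred and 18 without the 10 highest entries. The shares of all entries below 0 were then 41.2%, 50% and 34.9%. Leaving out a library was not possible. Depth limits genes with few reads most, and half-widths of the counting intervals ran from 0.09 to 0.40 on the log2 scale over the 43 genes.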
